A study of Mus musculus with 5 samples.

Results

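The distal end of mouse chromosome 11, from 95 Mb to the last mapped position at 121966187, carried 1153 CTCF peaks, of 22756 in the whole series and 2527 on this chromosome. Members were chosen by position alone: an interval belonged when its midpoint lay at 95000000 or beyond on mm10. The stretch spans 26.97 Mb, which is 1.01% of the length of all chromosomes between their outermost genes or peaks, and held 5.07% of the peaks. The peaks came from sequenced CTCF chromatin immunoprecipitations of NIH3T3, an established mouse embryonic fibroblast line. All cells expressed the histone fusion H2B-mCherry and the rtTA3G transactivator and carried a CDX2 gene, whose product is known for roles in gut and trophoblast, under the doxycycline-responsive TRE3G promoter. The 5 libraries were 2 CTCF precipitations from cells given doxycycline for 6 h (CTCF_Dox, dose labelled 500 ng/µL), 2 from cells without doxycycline (CTCF_noDox) and 1 input from cells without doxycycline (Input_noDox). The values are 1 list in which the peaks of both conditions were merged, with no height, score or library beside any peak. The read depth behind each peak is therefore unknown, and doxycycline was not compared with no doxycycline. There is no replicate spread, so every statement below is a description with no test between conditions. The intervals given are exact 95% intervals that cover counting error only, and since neighbouring peaks are not independent they are too narrow.

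CTCF is a zinc finger protein that binds a long, GC-rich DNA motif. It halts the cohesin complex as that complex extrudes chromatin loops, and bound sites therefore often stand at loop anchors and domain borders. It is also known as an insulator that separates enhancers from promoters, and many of its sites lie away from promoters.

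For peaks that lay at a promoter in this region, the letters below them could be read. RefSeq promoter windows on GRCm38.p6, the assembly behind mm10, run from 250 bases before to 50 bases after an annotated transcript start. Such a start can lie inside the gene body, as at Ttll6, Otop2 and Kansl1. Windows were found for 430 of the 585 protein-coding genes of the distal end. There were 530 of them, of which 21 held the midpoint of a peak. The spaced core of the CTCF motif, written 5′ to 3′ as CC, 3 bases of any kind, AG, 2 bases of any kind and GGC, was searched on both strands. It occurred in 11 of these 21 windows, or 52.4% (29.8 to 74.3%). A pair of these windows overlapped at Kansl1 and both matched, so 1 place was counted more than once. With each gene counted once, a count added after the values were seen, 10 of 20 genes had a match (50%, 27.2 to 72.8%), against 11.3% of all genes with a window. It occurred in 39 of the 509 windows of the distal end without a peak midpoint (7.66%, 5.50 to 10.3%) and in 9.87% of all 21237 promoter windows of the genome. Outside the distal end, 311 of 646 windows with a peak midpoint held it (48.1%, 44.2 to 52.1%). A stricter form, with G as the first of the 2 free bases after AG and thus contained in the core form, occurred in 9 of the 21 windows (8 of the 20 genes) against 4.12% of all windows. The 6 windows below are those with both a peak midpoint and a match whose genes had most peaks in the body and 10 kb on each side, with the core match in capitals; Tbx21 tied with the last 3 of them, at 3 peaks, and is not shown. They belong to Mgat5b, a glycosyltransferase gene, Otop2, a proton channel gene, Ttll6, a tubulin polyglutamylase gene, Gaa, which encodes lysosomal acid alpha-glucosidase, Mif4gd, which encodes a protein with an MIF4G domain, and Rgs9, a regulator of G-protein signalling.
Mgat5b, chr11:116918613-116918912, plus strand: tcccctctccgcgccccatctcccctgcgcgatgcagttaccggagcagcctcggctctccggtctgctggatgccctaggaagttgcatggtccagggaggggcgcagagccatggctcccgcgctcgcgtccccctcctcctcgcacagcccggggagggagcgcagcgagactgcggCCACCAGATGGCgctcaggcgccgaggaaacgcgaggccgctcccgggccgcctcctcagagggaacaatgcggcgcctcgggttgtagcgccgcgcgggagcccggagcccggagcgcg
Otop2, chr11:115322280-115322579, plus strand: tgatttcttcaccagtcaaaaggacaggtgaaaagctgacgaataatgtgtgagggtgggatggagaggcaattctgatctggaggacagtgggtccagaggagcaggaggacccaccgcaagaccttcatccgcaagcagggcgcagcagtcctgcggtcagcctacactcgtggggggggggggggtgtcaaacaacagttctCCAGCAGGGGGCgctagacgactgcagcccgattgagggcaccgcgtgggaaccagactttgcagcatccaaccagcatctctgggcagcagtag
Ttll6, chr11:96133536-96133835, plus strand: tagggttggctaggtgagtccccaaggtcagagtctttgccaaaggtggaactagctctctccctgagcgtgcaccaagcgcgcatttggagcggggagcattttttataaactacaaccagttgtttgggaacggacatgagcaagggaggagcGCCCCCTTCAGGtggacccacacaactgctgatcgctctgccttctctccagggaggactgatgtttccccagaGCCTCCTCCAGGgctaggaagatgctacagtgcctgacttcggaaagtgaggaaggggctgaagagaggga
Gaa, chr11:119267713-119268012, plus strand: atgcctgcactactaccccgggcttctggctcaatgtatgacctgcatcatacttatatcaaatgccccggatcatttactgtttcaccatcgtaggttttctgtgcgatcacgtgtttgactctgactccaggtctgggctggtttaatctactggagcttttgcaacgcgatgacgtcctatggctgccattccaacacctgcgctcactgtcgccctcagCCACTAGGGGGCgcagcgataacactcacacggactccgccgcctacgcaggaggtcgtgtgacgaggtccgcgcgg
Mif4gd, chr11:115612454-115612753, minus strand: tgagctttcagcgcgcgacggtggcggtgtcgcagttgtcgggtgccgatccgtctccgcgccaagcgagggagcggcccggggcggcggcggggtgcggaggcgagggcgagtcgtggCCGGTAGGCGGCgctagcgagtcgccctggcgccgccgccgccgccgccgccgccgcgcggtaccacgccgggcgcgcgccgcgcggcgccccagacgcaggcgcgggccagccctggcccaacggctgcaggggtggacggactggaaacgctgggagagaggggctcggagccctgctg
Rgs9, chr11:109298132-109298431, minus strand: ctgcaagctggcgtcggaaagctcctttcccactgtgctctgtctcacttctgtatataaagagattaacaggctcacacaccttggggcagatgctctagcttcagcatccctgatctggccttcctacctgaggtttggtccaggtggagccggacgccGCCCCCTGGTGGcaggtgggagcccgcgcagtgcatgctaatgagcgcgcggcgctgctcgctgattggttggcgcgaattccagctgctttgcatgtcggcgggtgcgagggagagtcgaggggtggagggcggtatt

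The match at Mgat5b began 70 bases before the start and its centre lay 17 bp from the midpoint of a 335 bp peak. At Otop2 the distance was 11 bp in a peak of 443 bp, and at Rgs9 it was 9.5 bp in a peak of 308 bp. At Ttll6 both matches stood on the strand opposite to the gene, and the nearer centre lay 16 bp from the midpoint of a 417 bp peak. The match at Rgs9 also stood on the opposite strand, while those at Mgat5b, Otop2, Gaa and Mif4gd stood on the strand of the gene. At Gaa and Mif4gd the match lay farther from the midpoint, at 52.5 and 86.5 bp, but inside peaks of 406 and 240 bp. A match describes letters in a window and does not show that the protein touched them.

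CTCF peaks were denser on the distal end than on the rest of the chromosome. The distal end held 42.8 peaks per Mb (40.3 to 45.3), against 14.95 per Mb (14.2 to 15.8) over the 1374 peaks and 91.9 Mb of chromosome 11 before 95 Mb, a ratio of 2.86 (2.64 to 3.09). The other 18 autosomes together held 8.77 per Mb. The input library was not analysed here, so whether these cells carry more copies of this region was not tested, and the density and the widths below stand without that check. Gene number moved with the density, and its part in the difference was not tested beyond the counts per gene given here. The distal end had 21.7 protein-coding genes per Mb, against 11.1 on the rest of the chromosome. Counted per protein-coding gene, the distal end had 1.97 peaks and the rest of the chromosome 1.35, a ratio of 1.46 (1.35 to 1.58). The border at 95 Mb does not coincide with the rise. The last peak outside it spanned 94978910 to 94979247 with a width of 338 bp, and the first inside it spanned 95001106 to 95001564 with a width of 459 bp. The 1 Mb before the border already held 41 peaks, against 10 in the 1 Mb before that.

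**Figure D1:**
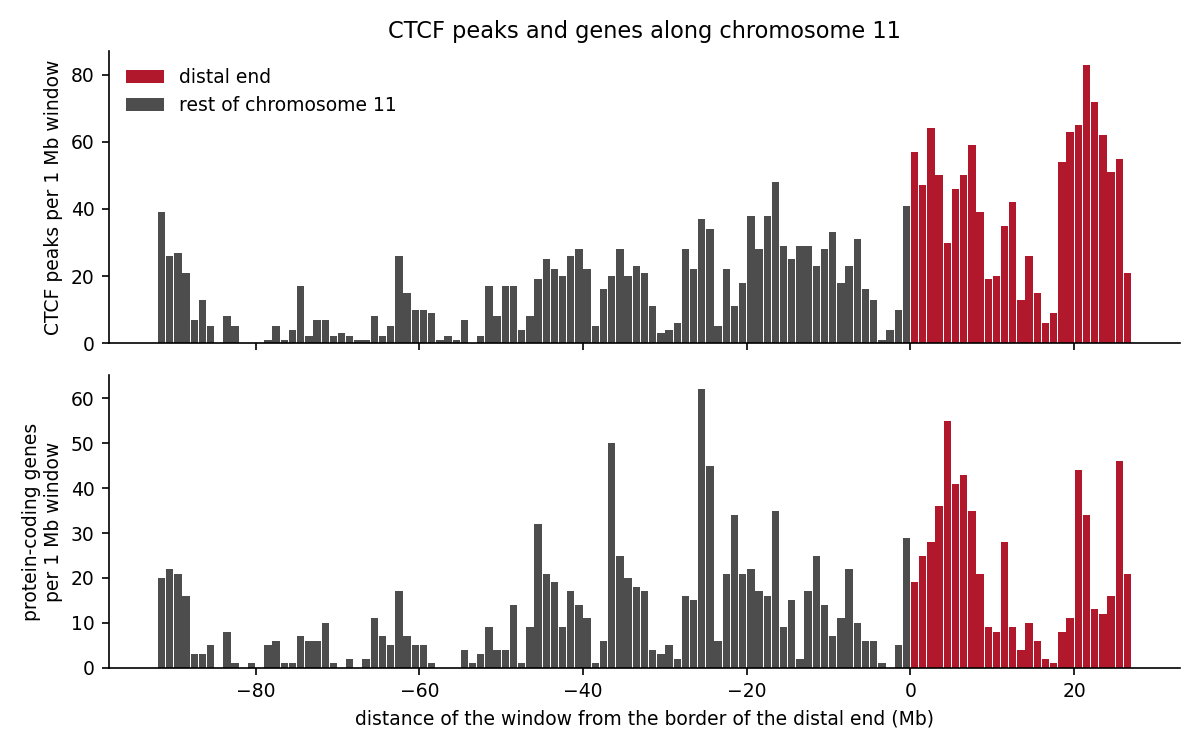
CTCF peaks (top) and protein-coding genes (bottom) in 1 Mb windows along chromosome 11, by distance of the window from the border of the distal end in Mb. The windows of the distal end (red) reach 83 peaks, against 48 on the rest of the chromosome (grey), and dip to 6 and 9 peaks about 16 to 18 Mb beyond the border.

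The ends of other chromosomes were less dense. The last 26.97 Mb of each autosome was counted in the same way, and the 5 other ends with most protein-coding genes were those of chromosomes 4, 15, 7, 9 and 2. Chromosome 11 ranked first of 19 by peaks per Mb, at 2.38 times (2.21 to 2.55) the pooled 17.99 per Mb of these 5 ends. The nearest was the end of chromosome 15 with 784 peaks, or 29.1 per Mb (27.1 to 31.2). The end of chromosome 5, sixth of the other ends by gene number, followed with 606 peaks (22.5 per Mb), and that of chromosome 2 with 493 (18.3 per Mb). The end of chromosome 4 had 450 protein-coding genes but 457 peaks (16.9 per Mb), and those of chromosomes 7 and 9 had 353 and 339 peaks. Per protein-coding gene the distances between the leading ends were small: 1.97 on chromosome 11, 1.87 on chromosome 19, 1.83 on chromosome 5 and 1.80 on chromosome 15. The end of chromosome 15 was also the one that stood farthest above the remainder of its own chromosome, by 3.76 times, while chromosome 11 stood at 2.86 and chromosome 19 at 1.04.

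**Figure D2:**
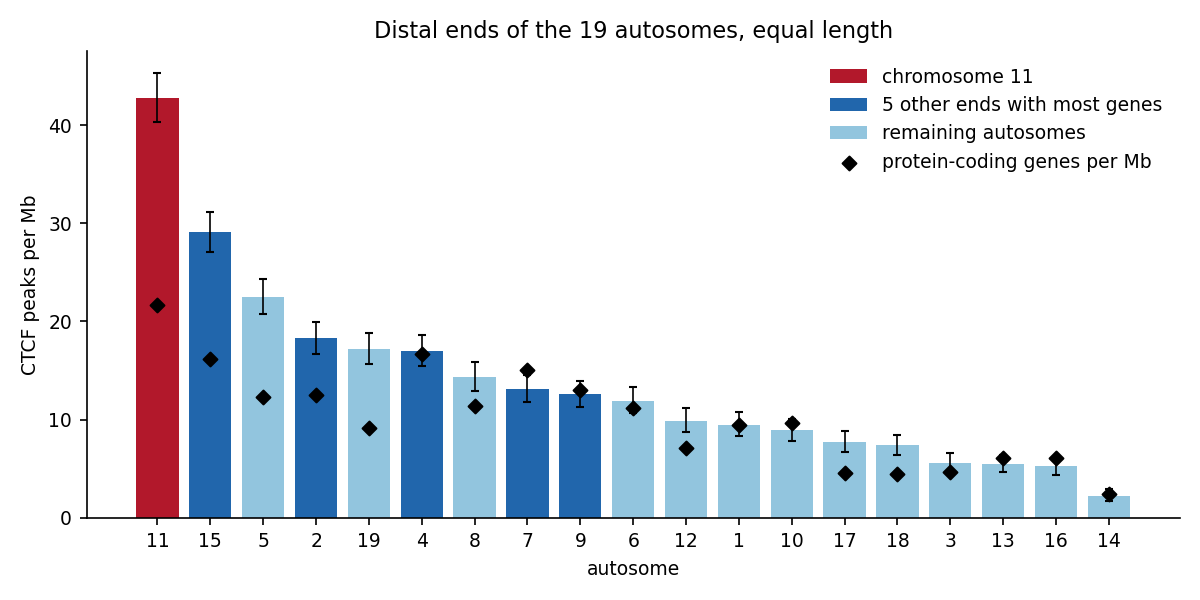
CTCF peaks per Mb (bars, with exact 95% counting intervals) and protein-coding genes per Mb (diamonds) over the last 26.97 Mb of each autosome. Chromosome 11 (red) stands at 42.8 peaks per Mb, above chromosome 15 at 29.1, and both have more genes per Mb than chromosome 5, the next in peaks.

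Within broad classes of protein-coding gene number, the median window of the distal end held more peaks than the median window elsewhere. Windows were not matched on gene number within a class, so the part of gene number in this difference was not tested. Among complete 1 Mb windows with 0 to 9 protein-coding genes, the 8 of the distal end had a median of 17 peaks (quartiles 12 and 25.5), against 5 (2 and 10) in 54 windows on the rest of chromosome 11 and 4 (1 and 8) in 1580 windows on the other autosomes. With 10 to 29 genes the medians were 54 in 10 windows of the distal end, 25 in 31 windows on the rest of the chromosome and 14 in 579 elsewhere. With 30 or more genes they were 52.5 in 8 windows, 27 in 6 and 25 in 99. The ranges overlapped in every class. Across the 26 complete windows of the distal end, peaks and protein-coding genes had a Pearson coefficient of 0.46 and a Spearman coefficient of 0.53. Across 92 windows on the rest of the chromosome these were 0.71 and 0.82. Neighbouring windows share genes, base composition and the same libraries, so the coefficients are descriptions.

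**Figure D3:**
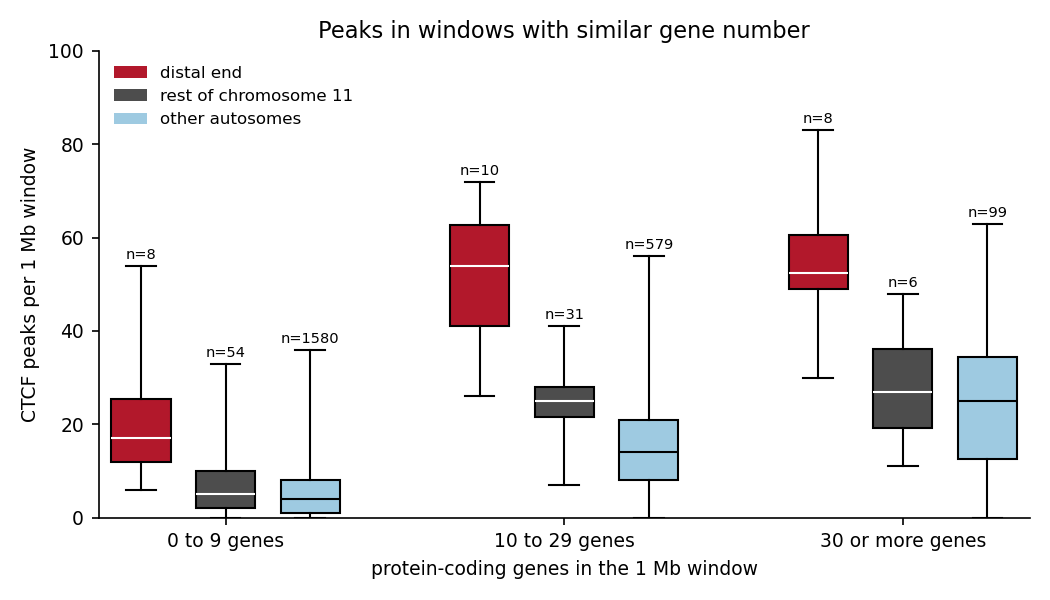
CTCF peaks per 1 Mb window in 3 classes of protein-coding gene number, for the distal end of chromosome 11, the rest of the chromosome and the other autosomes. Boxes give the quartiles and median, whiskers the lowest and highest window, and n the number of windows. In each class the median of the distal end is the highest, at 17, 54 and 52.5 peaks.

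Peaks of the distal end were also broader than those on the rest of the chromosome, but about as broad as those at the end of chromosome 15. The median was 289 bp wide (quartiles 224 and 383 bp), against 272 bp (219 and 337 bp) on the rest of the chromosome and 260 bp (217 and 313 bp) on the other autosomes. Among the equally long ends of the autosomes, the median was 287.5 bp on chromosome 15, 280 bp on chromosome 2 and lowest, at 223 bp, on chromosome 14. Peaks of 500 bp or more made up 105 of the 1153, or 9.11% (7.51 to 10.9%), against 78 of 1374, or 5.68% (4.51 to 7.03%), on the rest of the chromosome and 3.65% on the other autosomes. The 5 ends with most genes had 5.61% (4.72 to 6.60%). Width and density were thus both higher in the distal end in this comparison, and the part of one in the other was not tested. Inside the distal end their order differed. In 3 stretches of equal length the median widths were 300, 277 and 282 bp, at 49.1, 20.7 and 58.5 peaks per Mb. Across its complete 1 Mb windows, peak number and median width had a Spearman coefficient of 0.26. With only peaks at least as wide as the series' median of 262 bp, the density ratio of the distal end to the rest of the chromosome was 3.11. The widest peak, 1805 bp at 115159846 to 115161650, lay in Rab37, which encodes a small GTPase of secretory vesicles. The next, 1780 bp at 118102702 to 118104481, lay in Dnah17, an axonemal dynein heavy chain gene, and the one after, 1240 bp at 100281701 to 100282940, lay outside protein-coding genes between Krt42 and Eif1.

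The density was uneven within the distal end. In 3 stretches of equal length, 8.99 Mb each, the first held 441 peaks (49.1 per Mb), the second 186 (20.7 per Mb) and the third 526 (58.5 per Mb). Protein-coding genes were ordered differently, with 303 in the first stretch, 77 in the second and 205 in the third. Peaks per protein-coding gene were therefore lowest in the first stretch, at 1.46, and reached 2.42 in the second and 2.57 in the third. The window of 1 Mb from 99000001 holds the 23 listed keratin-associated protein genes and part of the keratin genes. It had 55 protein-coding genes, the most in the distal end, and 30 peaks. The windows from 113000001 and 114000001 had 8 and 11 genes with 54 and 63 peaks, and those from 117000001 and 118000001 had 13 and 12 genes with 72 and 62 peaks. The lowest window, from 111000001, held 6 peaks and 2 genes.

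Neighbouring peaks lay close together and often formed runs. In the distal end, midpoints of adjacent peaks were a median of 11.9 kb apart (quartiles 4.81 and 28.1 kb), against 24.2 kb (7.66 and 63.6 kb) on the rest of the chromosome, and 45.2% of these distances were below 10 kb, against 30.1%. A run was taken as at least 4 peaks with neighbouring midpoints at most 10 kb apart. The distal end had 75 runs, 2.78 per Mb, which held 368 of its peaks, or 31.9% (29.2 to 34.7%). The rest of the chromosome had 27 runs, 0.294 per Mb, holding 9.90% (8.37 to 11.6%) of its peaks, and over the whole series 8.73% of peaks lay in runs. A fixed distance is met more often where peaks are denser, so the share in runs is not a separate result from the density. Of the 75 runs, 44 lay in the third of the equal stretches, 26 in the first and 5 in the second. There were 38 runs of 4 peaks, 18 of 5, 12 of 6 and 7 of 7 or more. The median length from first to last midpoint was 17.0 kb. In 17 runs no protein-coding gene overlapped, and in 34 no peak lay within 1 kb of a gene end. Of all peaks of the distal end 16.9% lay that close to a gene end, so a run of few peaks can lack one by count alone.

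The longest run had 10 peaks over 51.4 kb, from 118076500 to 118128130, all inside Dnah17. Its peaks were 197 to 1780 bp wide, and none was at a gene end. The second had 9 peaks over 41.7 kb, from 116055136 to 116097179, and crossed Unk, an RNA-binding zinc finger gene, Unc13d, which primes secretory granules of cytotoxic cells for release, and Wbp2, which encodes a WW-domain binding protein. Of these 9 peaks 1 lay at a gene end. A run of 7 peaks over 18.03 kb surrounded Rpl38, a gene of the large ribosomal subunit: 4 peaks lay before the gene, 2 in its body and 1, of 482 bp, 0.529 kb past its far end. The peak of 673 bp near its left end, at 114667888 to 114668560, was the widest of that run. A run of 7 peaks lay around Neurod2, a neuronal transcription factor gene, and the gene model Gm33099, and another of 7 peaks over 29.2 kb began beside Nxph3, a neurexophilin gene, with 5 of its peaks past the right end of the gene and no further protein-coding gene in it.

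Long gaps were few. A gap was called long when neighbouring midpoints were over 250 kb apart. The distal end had 7, or 2.60 per 10 Mb, against 62, or 6.75 per 10 Mb, on the rest of the chromosome. Gaps over a fixed length are rarer where peaks are denser, so this count is not a separate result from the density. The longest gap of the distal end was 529.5 kb, against 4138 kb on the rest of the chromosome. The 3 longest of the distal end stood one after another around the inward rectifier potassium channel genes Kcnj16 and Kcnj2: 387.2 kb over Kcnj16, 458.9 kb over Kcnj2 and 529.5 kb over the gene model Gm11677. A gap of 276.5 kb overlapped Tanc2, a synaptic scaffold gene, and 1 of 263.4 kb overlapped Cep112, a centrosomal protein gene next to Axin2, a negative regulator of Wnt signalling. Below the limit of 250 kb, a gap of 218.9 kb held 17 whole protein-coding genes, among them keratin-associated protein genes of the Krtap1 and Krtap4 groups.

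Against the 42.8 per Mb of the whole distal end, peaks were sparse between Kcnj2 and Sox9 and just past Sox9, and became dense at Slc39a11. SOX9 directs cartilage formation and testis development, and its gene is known for distant enhancers spread over a large gene desert. Between the bodies of Kcnj2 and Sox9, a stretch of 1705 kb from 111076826 to 112782209 with 1 protein-coding gene model, there were 12 peaks, or 7.04 per Mb (3.64 to 12.3). That interval includes the 8.77 per Mb of the other autosomes, so the stretch was sparse for the distal end only. The first of the 12 peaks lay 446.8 kb past Kcnj2, where 4 peaks of 205 to 329 bp stood from 111523503 to 111537957. The last, 282 bp at 112779867 to 112780148, lay 2.20 kb before the start of Sox9. Kcnj2 likewise had 1 peak close by, of 203 bp, 1.38 kb before its left end. The 457.1 kb between Sox9 and Slc39a11 held 9 peaks (19.7 per Mb). The first lay 115.8 kb past Sox9, a gap of 211.1 kb followed, and the other 8 lay beyond that gap. Slc39a11, a zinc transporter gene of 405.4 kb, then carried 31 peaks in its body, 7.65 per 100 kb, with 16 left of the middle of the gene and 15 right of it. The distance between its neighbouring peaks had a median of 7.30 kb and a largest value of 93.6 kb.

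**Figure D4:**
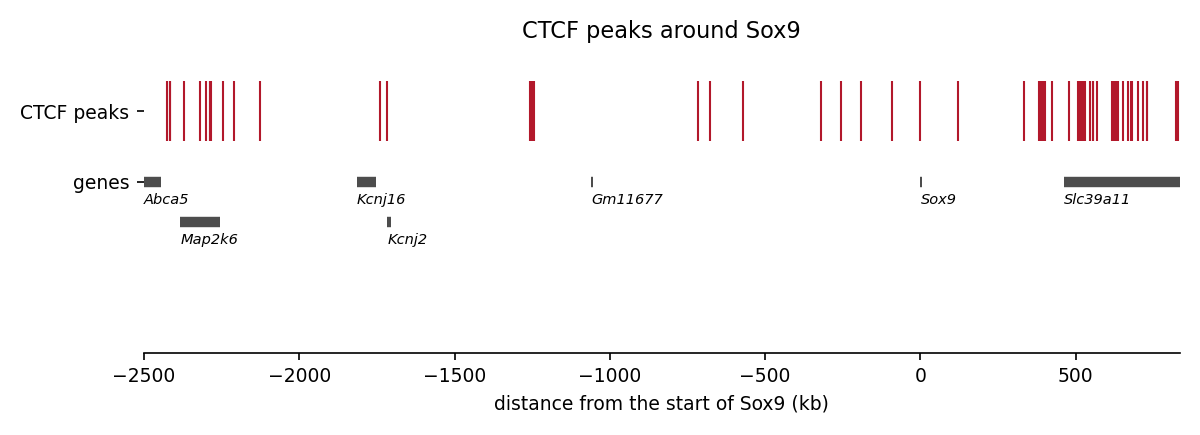
CTCF peaks (red lines) and protein-coding genes (grey bars) by distance from the start of Sox9 in kb. Against the whole distal end, peaks are sparse from Kcnj16 to Sox9, with 12 between Kcnj2 and Sox9. They become dense at Slc39a11, whose body holds 31 (its right edge is not drawn).

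Most genes of the distal end had a peak nearby. Of its 585 protein-coding genes, 476 (81.4%, 78.0 to 84.4%) had a peak in or near the gene, which here means in its body or the 10 kb on each side, against 664 of 1017 (65.3%, 62.3 to 68.2%) on the rest of the chromosome. Over all 21775 protein-coding genes this was 50.8%. A peak within 1 kb of either end of the gene was found at 148 genes (25.3%, 21.8 to 29.03%), against 161 (15.8%, 13.6 to 18.2%) on the rest of the chromosome and 12% over all genes. At least 5 peaks in or near the gene were found at 68 genes (11.6%), against 5.11% on the rest of the chromosome and 2.91% over all genes. Fixed zones around genes are met more often where peaks are denser, so these shares of genes are not a separate result from the density. Genes of the distal end were shorter, with a median of 11.4 kb against 15.8 kb on the rest of the chromosome.

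Seen from the peaks, the order at gene ends depended on the definition. The midpoint of 195 peaks of the distal end (16.9%, 14.8 to 19.2%) lay within 1 kb of an end of any annotated gene, against 254 (18.5%, 16.5 to 20.6%) on the rest of the chromosome and 16.5% over the series. Within 2.5 kb of an end, or with protein-coding genes only, the order turned, at 35.6% against 32.5% and 12.1% against 11.1%. A further 643 peaks (55.8%) lay elsewhere in a gene body, against 48.3% on the rest of the chromosome, and 315 (27.3%) lay outside genes, against 33.3%. Gene bodies covered 64.4% of the distal end and 52.2% of the rest of the chromosome. The annotation used gives gene starts and ends without exons, so exons, introns and untranslated parts were not told apart.

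The genes with most peaks in the body were 40.9 to 421.8 kb long and differed in how tightly the peaks were packed. Dnah17 had 18 peaks in 109.0 kb, or 16.5 per 100 kb, with 8 left of its middle and 10 right of it. Rbfox3, a splicing factor gene whose product is the neuronal antigen NeuN, also had 18, but in 421.8 kb, or 4.27 per 100 kb, with 12 left of its middle and 6 right of it. Sdk2, a cell adhesion gene, had 15 at 5.16 per 100 kb, and Septin9, a cytoskeletal septin gene, had 13 at 7.99 per 100 kb, 9 of them right of its middle. Pitpnc1, a phosphatidylinositol transfer protein gene, had 10 at 3.80 per 100 kb. Skap1, an adaptor gene of T cells, and Arhgap23, a gene for a GTPase-activating protein, had 8 each, at 2.71 and 8.16 per 100 kb. Prkca, the gene of protein kinase C alpha, is about as long as Slc39a11, at 410.5 kb, and had 7, or 1.71 per 100 kb, 6 of them left of its middle. Recql5, a DNA helicase gene, had 7 in 40.9 kb, or 17.1 per 100 kb. Rptor, which encodes a subunit of an mTOR complex, tied with Prkca and Recql5 at 7.

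Per 100 kb of body and 10 kb on each side, the 10 densest genes with at least 5 peaks were 4.52 to 28.8 kb long. Gm33099 had 6 peaks (22.7 per 100 kb), Wbp2 had 6 (21.1), Rpl38 had 5 (20.4) and Fam171a2 had 6 (19.5). Aanat, which encodes an enzyme of melatonin synthesis, had 5 (19.3), and its neighbour Rhbdf2, which encodes the inactive rhomboid iRhom2, had 9 (18.4). Unc13d had 7 (19.2), Amz2, a metalloprotease gene, 6 (18.6), Smim5 had 5 (17.6) and Gprc5c, an orphan receptor gene, 7 (16.9). Unc13d and Wbp2, and likewise Aanat and Rhbdf2, share peaks in their flanks, and Amz2 had none in its body.

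Among regulators of development, the Hoxb genes, homeobox genes of body-axis patterning, lay in a cluster of 173.9 kb with 9 peaks. Of these, 5 lay between Hoxb13 and Hoxb9, 1 between Hoxb9 and Hoxb8, and 1 each in the bodies of Hoxb8, Hoxb6 and Hoxb3. Of the 10 Hoxb genes, 7 had a peak in or near the gene, and Hoxb7 and Hoxb8 had one within 1 kb of an end; over all 585 protein-coding genes of the distal end these shares were 81.4% and 25.3%. Cbx1, Cbx2 and Cbx8, which encode chromodomain proteins of heterochromatin and Polycomb complexes, had 2 peaks each in or near the gene. Wnt9b, a Wnt ligand gene, had 6 peaks. Its neighbour Wnt3 had none within 10 kb, but the nearest peaks lay just past that limit, 10.2 kb to its left and 10.4 kb to its right. The 3 Stat genes, transcription factors of cytokine signalling, had 2 peaks at Stat5b, 2 at Stat3 and 1 at Stat5a.

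The list labelled fibroblast and matrix genes also holds more general adhesion and signalling genes, such as Itgb4 and Grb2. All 12 listed members had a peak in or near the gene, against 81.4% of all 585 genes of the distal end. Their median was 2 per gene, the same as over all 585. Itgb4, an integrin beta subunit gene, had 7, Timp2, an inhibitor of metalloproteases, 5, Mrc2, a collagen receptor gene, 4, and Grb2, an adaptor of receptor tyrosine kinases, 3. Actg1, the cytoplasmic gamma actin gene, had 2, with 1 in its body of 2.81 kb. The collagen gene Col1a1, at 94936224 to 94953042, fell just outside the border and had 3. The 4 integrin genes had 15 distinct peaks, with 4 at Itga3 and 2 each at Itgb3 and Itga2b. In the cell cycle list 8 of 10 had a peak, a share near the 81.4% over all genes of the distal end, with 4 at the replication licensing gene Cdc6, 4 at the thymidine kinase gene Tk1 and 2 at the survivin gene Birc5. Top2a, the gene of topoisomerase II alpha, and Brca1, a DNA repair gene of 63.2 kb, had none within 10 kb, and the nearest peaks to Brca1 lay 21.0 kb to its left and 10.7 kb to its right. Fasn, which encodes fatty acid synthase, had 2 peaks, and Mapt, the gene of the microtubule protein tau, had 5.

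Tandem gene families had fewer peaks in or near each gene than the mean of 2.29 over all protein-coding genes of the distal end. The mean was 0.741 for keratins, 0.217 for keratin-associated proteins, 0.583 for Cd300 receptors and 0.6 for Abca transporters. These counts were not scaled by gene length, and a short gene offers less length in which a peak can be counted. Of 27 keratin genes, the type I intermediate filaments of epithelia and hair, 12 had a peak in or near the gene, against 81.4% over all genes of the distal end, with a median of 0 per gene. Krt28 had 4, Krt33a 3 and Krt17, Krt222 and Krt42 had 2 each, and Krt10 had 1. Of 23 genes named as keratin-associated proteins, which are hair matrix proteins, 5 had a peak, from 3 distinct peaks. None had one at a gene end, against 25.3% over all genes of the distal end. Gene models with Gm symbols lie among them and were not in the list, and the model Gm11596 had a peak in its body and at an end. From Krt222 to Krt42 the keratin region of 1037 kb held 23 peaks, or 22.2 per Mb, which is below the 42.8 per Mb of the distal end and above the 14.95 per Mb of the rest of the chromosome. By length the families differed: there were 28.4 peaks per Mb from Cd300a to Cd300lf and 7.40 per Mb from Abca8b to Abca5. Of 12 Cd300 genes, immune receptors of the immunoglobulin family, 4 had a peak, with 3 at Cd300lg, which lies apart from the others, and 2 at Cd300lb. Of 5 Abca genes, lipid transporters, 2 had a peak: Abca5 had 2 and Abca8a 1, while Abca6, Abca8b and Abca9 had none. Members of such families resemble each other in sequence, and reads that fit more than 1 copy make their counts uncertain.

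Among housekeeping complexes, all 6 mitochondrial ribosomal protein genes had peaks, 3 of them at a gene end, beside 81.4% and 25.3% over all genes of the distal end, with 2 each at Mrpl10, Mrpl38, Mrpl45 and Mrps7. Of 4 cytosolic ribosomal protein genes, Rpl38 had 5, Rpl19 and Rpl23 had 1 each and Rpl27 had none. All 5 proteasome subunit genes had peaks, beside the same 81.4%, with 3 each at Psmb3 and Psmd12. Of 11 solute carrier genes 10 had a peak, also beside 81.4% over all genes, led by Slc39a11 with 32, Slc38a10 with 6 and Slc16a6 with 4. Of the 3 genes for gamma subunits of calcium channels, Cacng4 had 4 peaks, Cacng5 1 and Cacng1 none. The kinesin genes Kif19a and Kif18b had 4 and 1. Of the 3 Zfp genes, Zfp385c had 5, Zfp652 3 and Zfp750 none, and the splicing factor gene Srsf2 had none. These groups are small, and nothing is read from their counts beyond the values given.

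**Figure D5:**
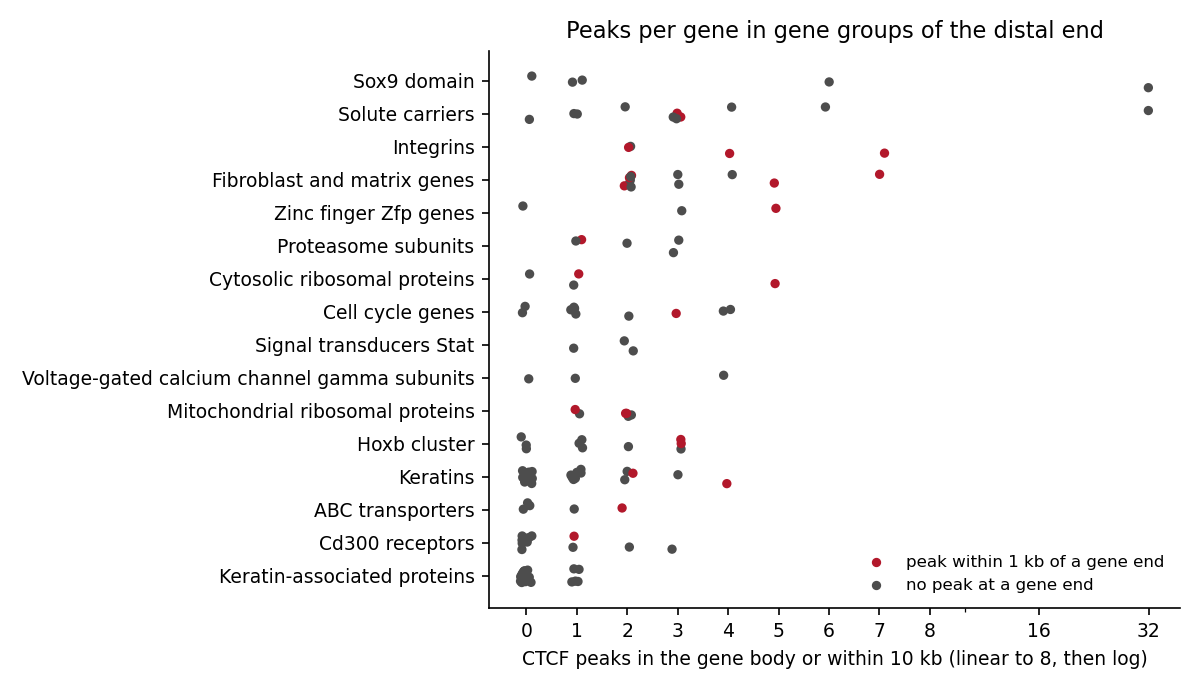
CTCF peaks in or near (body and 10 kb on each side) each member of 16 gene groups of the distal end, ordered by mean; red points are genes that have a peak at an end (within 1 kb). Cd300 receptors, Abca transporters, keratins and keratin-associated proteins each have a median of 0. The 12 genes of the fibroblast and matrix list lie between 2 and 7, and their median of 2 equals that over all 585 protein-coding genes of the distal end.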

How the data were processed

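The authors deposited a single set of peak intervals, with 3 columns (chromosome, start and end) and no header, and per the file's name the peaks of both conditions were merged in it. Its values are positions in bp. Per the submitters' processing notes, STAR, Picard and MACS2 and the builds mm10 and dm6 were used, without versions or roles. Peak thresholds, the treatment of duplicates, the merging and the use of the Drosophila build are steps not given in the sources used here. Depth per library is unknown.

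Positions are counted from 1. Genes came from RefSeq for GRCm38.p6: 49599 on chromosomes 1 to 19, X and Y, 21775 of them protein-coding, after 340 positioned below 3 Mb were left out. A peak belonged to a gene by its midpoint. Density was the count divided by the length between the outermost genes or peaks, with exact Poisson intervals; shares had exact Clopper-Pearson intervals, and ratios intervals from the binomial split. The counting code recovered planted runs and gene-end peaks in simulated data. Python 3.11.15, pandas 2.3.3 and scipy 1.17.1 were used.

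The region, the 20 gene lists, the classes of windows and the rules were chosen with earlier results of these data known. Named genes were the 10 with most peaks in the body, the 10 densest with at least 5 peaks, those at the 5 longest gaps and in the 5 largest runs, up to 4 per list, and 16 set by name. Rptor, Kansl1, Tanc2, Cep112, Rab37, Eif1, Krt42, Hoxb3, Abca9, Tbx21 and Gm11596 were named after their values were seen. One gene of a list, and the counts that rest on it, are not reported here.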

Additional observations from a re-analysis of the deposited data

How the results depend on the processing

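No alternative turned round a ratio: the distal end remained denser than its comparison in each one tried, which were other borders, only wide peaks, merged neighbours and counts per gene. The density was 38.2 per Mb with the border at 90 Mb and 25.7 with wide peaks only, those no narrower than the series' median. The ratio to the rest of the chromosome was 2.55 and 2.46 with the border at 90 and 100 Mb, 3.11 with wide peaks, 1.46 per protein-coding gene and 1.81 per annotated gene. The ratio to the other gene-dense ends was 3.53 against all 18 other ends, 2.92 over the last 10 Mb of each and 1.61 per protein-coding gene. The share of peaks at gene ends was 10.6% within 500 bp, 35.6% within 2.5 kb, 19.6% with any overlap, 12.1% with protein-coding genes only and 19.2% with wide peaks. The share of genes with such a peak was 14.7%, 46.8% and 17.8% within 500 bp, within 2.5 kb and with wide peaks, against 7.82%, 21.2% and 7.48% over all genes. Runs numbered 14 within 5 kb, 19 with at least 6 peaks and 18 with wide peaks, and in each setting the share of peaks in runs was higher in the distal end than on the rest of the chromosome. Long gaps numbered 1 over 500 kb and 11 with wide peaks, which also gave a median distance of 19.8 kb and 47 peaks in the fullest window. Wide peaks alone, and shorter or longer distances, change these counts by their construction. No paired analysis was possible because no peak is tied to a library, and for the same reason no replicate could be left out. Peaks with few reads may be missing, and how many cannot be told without depth.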
